A study of Rattus norvegicus with 24 samples.

Results

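Skin was set against prostate, ovary and forebrain of rats given dihydrotestosterone (DHT), the most active natural androgen, to describe which transcripts set skin apart from every one of the 3 other tissues. The comparison used 12 of the 24 arrays of the series, 3 each of skin, prostate, ovary and forebrain. All 12 came from Sprague-Dawley rats of 12 weeks that had received a single intraperitoneal dose of 10 mg/kg DHT 16 h before the tissues were taken. Skin, prostate and forebrain came from males castrated 3 days before the dose, and ovary came from intact females according to the sample labels, so that sex and castration go with the ovary contrast. The design text of the series names castrated males for all tissues. It calls the arrays of a group biological replicates, but the labels do not say that they came from separate animals or that tissues of the same number came from the same male, so p-values reflect only how far these samples differ from each other. Each array measured RNA that had been amplified and labelled with the dye Cy3. A gene's level is given throughout as log2 of its signal minus the 75th percentile of its array, so that 0 is the signal at that percentile, and a difference of 1 is a 2-fold difference.

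Skin is a layered organ, and its parts can be told apart by the proteins they make. Basal keratinocytes, which hold the dividing cells of the epidermis, make the keratin pair Krt5 and Krt14. Cells that leave this layer switch to Krt1 and related keratins and then build the cornified envelope, a cross-linked protein shell that seals the surface. Hair follicles make their own keratins and keratin-associated proteins while they grow a shaft, and sebaceous glands secrete lipid into them. Below lie the collagen-rich dermis with its fibroblasts, vessels, nerves and mast cells, a layer of fat, and, in rodents, the panniculus carnosus, a thin sheet of skeletal muscle attached to the skin.

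Of 31890 genes or unnamed probes tested, 6060 (19.0%) were higher in skin than in each of the 3 other tissues and 3723 (11.7%) were lower than in each (limma, Benjamini-Hochberg adjusted p under 0.05 in all 3 contrasts). A gene symbol was known for 7607 of those tested, of which 1051 (13.8%) were higher and 1101 (14.5%) lower, the shares to set beside the gene lists below. Probes had to be above background on 3 or more arrays, so a gene above background in skin alone was tested only through the skin arrays. The list counts include such genes, and their calls are not support apart from that filter. The difference was at least 4-fold against every tissue for 2662 genes higher and 410 lower in skin. For 5732 of the 6060 all skin arrays lay above the 9 other arrays, and for 3581 of the 3723 all skin arrays lay below them. The calls were made on these same arrays, so this separation adds no support to them. Against single tissues, 33.0% of genes were higher and 28.4% lower than in prostate, 34.7% higher and 28.7% lower than in ovary, and 39.5% higher and 30.3% lower than in forebrain. The tissue with the next highest level was prostate for 2804 of the genes higher in skin, forebrain for 1801 and ovary for 1455. In tissue RNA of this kind, fewer cells of a type and less RNA per cell cannot be told apart.

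The skin arrays were dim. Their 75th percentile of signal was 55.4, 179 and 203 units, against 486 to 1421 on the 9 other DHT arrays, and 27.5% to 41.4% of the total signal lay in the 100 brightest probes, against 12.7% to 20.9%. Outlier spots were left out of these shares, among them spots of bright muscle genes such as Myh4 on skin array 2, which had the 27.5%. The division into higher and lower moved with the scaling between arrays. The counts were 4919 higher and 4919 lower with quantile normalization, and 3947 higher and 6158 lower with the array median. They were 14168 higher and 2648 lower after another background correction, normexp, under which 1966 of the 3723 lower genes were again lower and 275 were called higher. Without any scaling, 482 genes remained higher, 101 of them with a symbol, and 21660 were lower, among them 1069 of the 6060 that were higher with the 75th percentile. The median difference of all genes between skin and prostate, ovary and forebrain was 0.25, 0.18 and 0.35 with the 75th percentile, and -0.39, -0.34 and -0.08 with the median. With the 75th percentile over detected probes alone, 6940 were higher and 3080 lower. Under all 5 of these scalings 3792 genes were higher and 1637 lower. The part of the low signal of skin in these counts was not tested, and the counts without scaling are given below for the groups with several genes called.

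**Figure D1:**
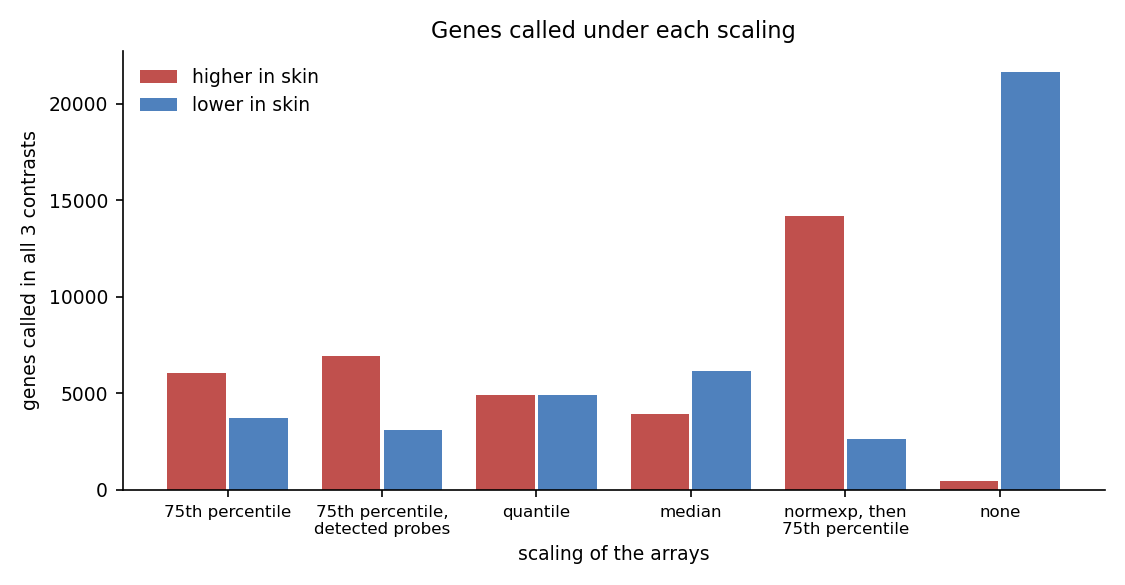
Number of genes called higher (red bars) and lower (blue bars) in skin than in all 3 other tissues, under each way of scaling the 12 DHT arrays. The 75th percentile gives 6060 higher and 3723 lower, and no scaling gives 482 higher and 21660 lower.

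Single arrays also stood apart from the others of their group. Among genes higher in skin with a symbol and a value on all 3 skin arrays, the median range over those arrays was 0.99, but 21 of 1035 genes ranged over more than 4. Skin DHT array 1 had the lowest value for 17 of these 21, and 9 of them were on the list of hair follicle genes. On the vehicle arrays, which serve here as an independent set of samples, skin array 1 lacked skeletal muscle transcripts and skin array 2 had more brain transcripts than the other skin arrays. Neuronal genes had a mean level of -1.46 on skin vehicle array 2, against -4.55 and -3.74 on arrays 1 and 3. Probes well above background made up 96.5% of ovary vehicle array 1, 97.0% of array 3 and 54.6% to 75.7% of the other vehicle arrays used.

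The markers that define the epidermis followed the label. Krt5 stood at 5.64, 6.04 and 6.36 on the 3 skin arrays, at 2.40, 2.32 and 2.31 on prostate, at -3.76, -3.65 and -4.64 on ovary and at -3.51, -3.56 and -3.80 on forebrain. Krt14 stood at 7.51, 7.60 and 8.25 in skin, at 3.30, 2.49 and 3.00 in prostate, at -1.21, -1.71 and -1.95 in ovary and at -3.31, -3.50 and -3.49 in forebrain. All skin arrays lay above all others for both keratins, and prostate, which has basal epithelial cells of its own, came next. Krt5 was higher in skin by 3.67, 10.03 and 9.64 (SE 0.27) than in prostate, ovary and forebrain, and Krt14 by 4.86, 9.41 and 11.22 (SE 0.28), with adjusted p of 1.8e-06 or less in limma. Krt14 remained higher without scaling and Krt5 did not. Markers of the other tissues were low in skin: Pbsn, which encodes the prostate secretory protein probasin, was not well above background on any skin array, and Snap25, a synaptic protein, was 10.52 lower than in forebrain.

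**Figure D2:**
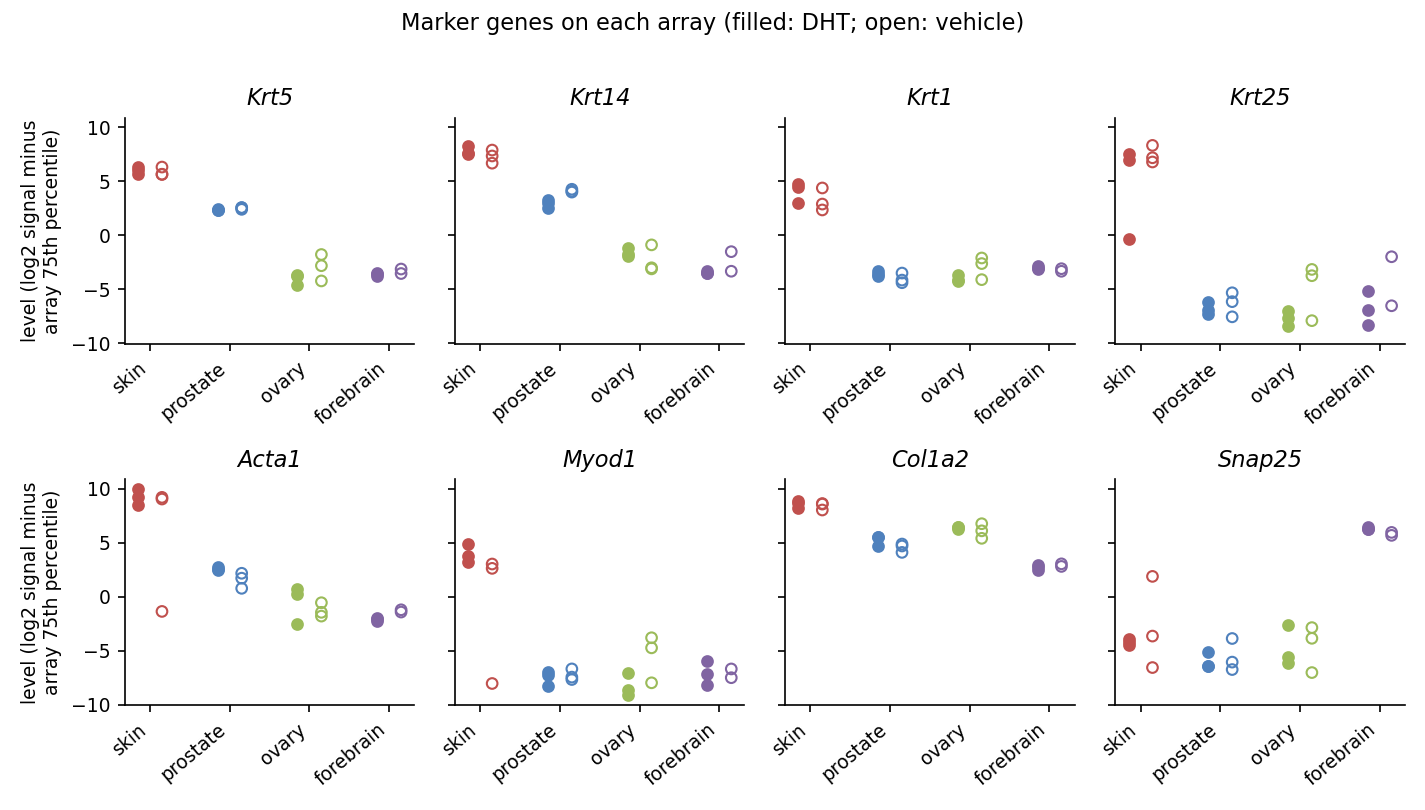
Log2 level of 8 marker genes (signal minus the 75th percentile of the array), 1 panel per gene and 1 point per array, by tissue, with DHT arrays filled and vehicle arrays open. The skin arrays lie above all others for Krt5 and Krt14, DHT skin array 1 lies far below the other skin arrays for the hair keratin Krt25, and vehicle skin array 1 does so for Acta1 and Myod1.

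Basal keratinocyte genes were the first group. Of 6 measured members, 5 were higher in skin than in every tissue and 0 lower, with medians over the list of 2.39, 9.08 and 10.43 against prostate, ovary and forebrain. Beside Krt5 and Krt14 these were Krt15, a keratin of basal and hair bulge cells, Tp63, the transcription factor that maintains stratified epithelia, and Plec, which encodes plectin, the linker of keratin filaments to the basement membrane. Krt15 was higher by 2.86 (SE 0.60), 10.49 and 12.67, and Tp63 by 1.93 (SE 0.64, adjusted p = 0.024), 8.76 and 11.92. The integrin gene Itgb4 was level with prostate (difference -0.35, SE 0.28, adjusted p = 0.29). Without scaling 1 of the 6 remained higher, and Tp63 and Plec turned lower than in the nearest tissue.

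The promoter of Krt5 is shown because the gene marks this layer. It holds CANNTG but not TATAAA, which the hair and muscle promoters printed further on hold. Sequences are from RefSeq (GRCr8), from 250 bases before to 50 bases after the start of the gene, 5′ to 3′. Capitals mark the E-box pattern CANNTG, which reads the same way on both strands, and TATAAA or, on the opposite strand, TTTATA.
Krt5 (chr7:134730520-134730819, minus strand): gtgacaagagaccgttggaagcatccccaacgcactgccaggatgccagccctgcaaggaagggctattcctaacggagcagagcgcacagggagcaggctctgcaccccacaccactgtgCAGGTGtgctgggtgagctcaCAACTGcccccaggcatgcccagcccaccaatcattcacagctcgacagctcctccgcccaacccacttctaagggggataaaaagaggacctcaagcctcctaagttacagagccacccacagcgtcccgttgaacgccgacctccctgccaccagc

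Genes of differentiating keratinocytes had similar median differences from the 3 tissues. Among suprabasal and cornified envelope genes 9 of 10 were higher and 0 lower, 5 of them also without scaling, with median differences of 6.85, 6.83 and 7.26. With any 1 skin array left out, 8 could be tested and 7 were higher. Krt1, the first keratin of differentiating cells, stood at 4.77, 3.02 and 4.47 in skin and between -4.26 and -2.87 on all 9 other arrays. It was higher by 7.66, 8.13 and 7.10 (SE 0.38, adjusted p of 2.1e-07 or less). Ivl, which encodes involucrin, a scaffold of the cornified envelope, stood at 0.04, 1.34 and 1.86 in skin and was not well above background on any other array. Its level was at least 78.3-fold, 137-fold and 118-fold higher than in prostate, ovary and forebrain. Such a lower limit sets the mean of the skin arrays against a floor for the dim tissue, the lowest signal that still counted as above background on each array or the dim probe's value where that was higher. Kprp, a proline-rich protein of keratinocytes, stood at 3.04, 2.73 and 3.07 and was likewise measured in skin alone, at least 285-fold, 499-fold and 431-fold higher. Ly6g6c and Sbsn, which encodes suprabasin, were higher by at least 7.08 and 4.72 in every contrast. The exception on the list was Calml3, a calmodulin-like protein of epithelia, which was 3.08 lower in skin than in ovary.

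Keratins and calgranulins that epidermis makes in hair follicle sheaths, wounds and inflammation were also higher. All 4 measured members passed, 3 of them also without scaling. With any 1 skin array left out, 3 could be tested and 3 were higher. Krt17, a keratin of appendages and wounded epidermis, stood at 1.72, 2.69 and 3.74 in skin and between -7.38 and -4.10 elsewhere. Krt75, a keratin of the companion layer of the follicle, stood at -0.29, 1.74 and 2.53 and was not well above background in any other tissue. S100a8 and S100a9, which encode the subunits of calprotectin and are made by keratinocytes and neutrophils, were higher by at least 5.37 and 4.69. Both were also called higher on the vehicle arrays.

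Junctions, lipid enzymes and proteases of the epidermis were less uniform. Of all genes with a symbol, 13.8% were higher and 14.5% lower in every contrast. Of 10 genes of desmosomes and other junctions 3 were higher and 0 lower: Cldn1, a claudin of the epidermal barrier (by 3.44, 3.96 and 6.07), the connexin Gjb5 (3.11, 3.28 and 3.95) and Jup, which encodes plakoglobin (0.65, 0.95 and 2.52). None was higher without scaling, where Gjb5 and Jup turned lower than in the nearest tissue. The connexin Gjb2 stood at 1.14, 7.01 and 7.24 on the skin arrays, a split that followed the hair genes described next, and did not pass against forebrain (difference 3.00, SE 1.52, adjusted p = 0.10). Without skin array 1, 5 of the 10 junction genes were higher. Of 6 barrier lipid enzymes only Sult2b1, which makes cholesterol sulfate, passed in all 3 contrasts, and it turned lower than in the nearest tissue without scaling. Of 8 epidermal proteases and inhibitors 4 were higher, 3 of them also without scaling. Serpinb2, an inhibitor of plasminogen activators, was at least 45.5-fold, the kallikrein Klk10 at least 54.8-fold and the serpin Serpina12 at least 28.9-fold higher. Cst6, the cystatin that restrains cornification proteases, was higher by at least 2.70 and turned lower than in the nearest tissue without scaling. Klk6 was shared with forebrain (difference -0.03, SE 0.44).

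Hair follicle genes separated skin from the other tissues and the skin arrays from each other. Of 20 measured members 14 were higher and 0 lower, 6 of them also without scaling, with median differences of 4.93, 5.12 and 5.91. Krt25, a keratin of the inner root sheath, stood at -0.39 on skin array 1 and at 6.96 and 7.51 on arrays 2 and 3. Elsewhere it lay between -8.37 and -5.21 and was well above background on 1 of 9 arrays. All 3 skin arrays were above the others, but array 1 lay far below the other 2. It was at least 956-fold higher than in prostate, where no array was above background, and 11.51 higher (SE 1.71) than in forebrain, where 1 of 3 arrays was above background, so that this value is approximate. Krt73, another inner root sheath keratin, stood at -2.08, 3.25 and 4.16, and Krt34, a keratin of the hair shaft, at -3.65, 2.14 and 4.44. Krt26 and Krt72 had levels of -5.04 and -5.36 on array 1 and of 2.06 to 3.23 on arrays 2 and 3, and Krt72 on array 1 lay within the range of the other tissues. S100a3, a calcium-binding protein of the hair cuticle, stood at -0.43, 4.90 and 6.47 and was higher by 8.01, 7.12 and 5.19 (SE 1.32).

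The 2 inner root sheath keratins are shown with their promoters because they moved together across the skin arrays. Krt25 lies on chromosome 10 and Krt73 on chromosome 7, and each holds 1 TATAAA, which begins 30 and 49 bases before the start of the gene.
Krt25 (chr10:84771148-84771447, minus strand): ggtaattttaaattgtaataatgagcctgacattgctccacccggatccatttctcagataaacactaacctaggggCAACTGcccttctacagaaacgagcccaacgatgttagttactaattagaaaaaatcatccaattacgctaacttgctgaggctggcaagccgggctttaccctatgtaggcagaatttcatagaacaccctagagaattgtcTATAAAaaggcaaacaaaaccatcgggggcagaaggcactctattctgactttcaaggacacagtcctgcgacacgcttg
Krt73 (chr7:134814979-134815278, minus strand): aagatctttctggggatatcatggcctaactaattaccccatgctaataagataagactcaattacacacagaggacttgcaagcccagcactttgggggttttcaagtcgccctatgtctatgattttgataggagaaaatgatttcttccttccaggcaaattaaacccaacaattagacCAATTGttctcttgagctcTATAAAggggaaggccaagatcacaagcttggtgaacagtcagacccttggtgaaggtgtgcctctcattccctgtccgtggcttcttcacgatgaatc

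The split between the skin arrays was wider than these keratins. The mean of the hair follicle list was -1.47 on skin array 1, 2.52 on array 2 and 3.05 on array 3, and between -4.76 and -3.29 on all other DHT arrays. On the vehicle arrays, skin array 1 had a mean of 3.70, array 2 of 2.57 and array 3 of 3.08, so that 5 of the 6 skin arrays were alike and DHT array 1 was the low one. Without that array 17 of the 20 genes were higher in skin. Without DHT array 2 or DHT array 3, 16 could be tested and 10 were higher. Genes with a range over 4 and the lowest value on array 1 that were chosen for that range after their values had been seen included Krtap1-5, a keratin-associated protein (2.32, 6.26 and 7.60), and Msx2, a homeobox factor of the hair matrix (-2.38, 2.47 and 2.27). Cell cycle genes were likewise lowest on array 1, with list means of -1.34, 0.54 and -0.12 on arrays 1 to 3. Of 15 measured, 0 were higher or lower in every contrast on the DHT arrays, and 5 were higher on the vehicle arrays. Hair cycle stage is not in the labels, and its part in the split was not tested.

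**Figure D3:**
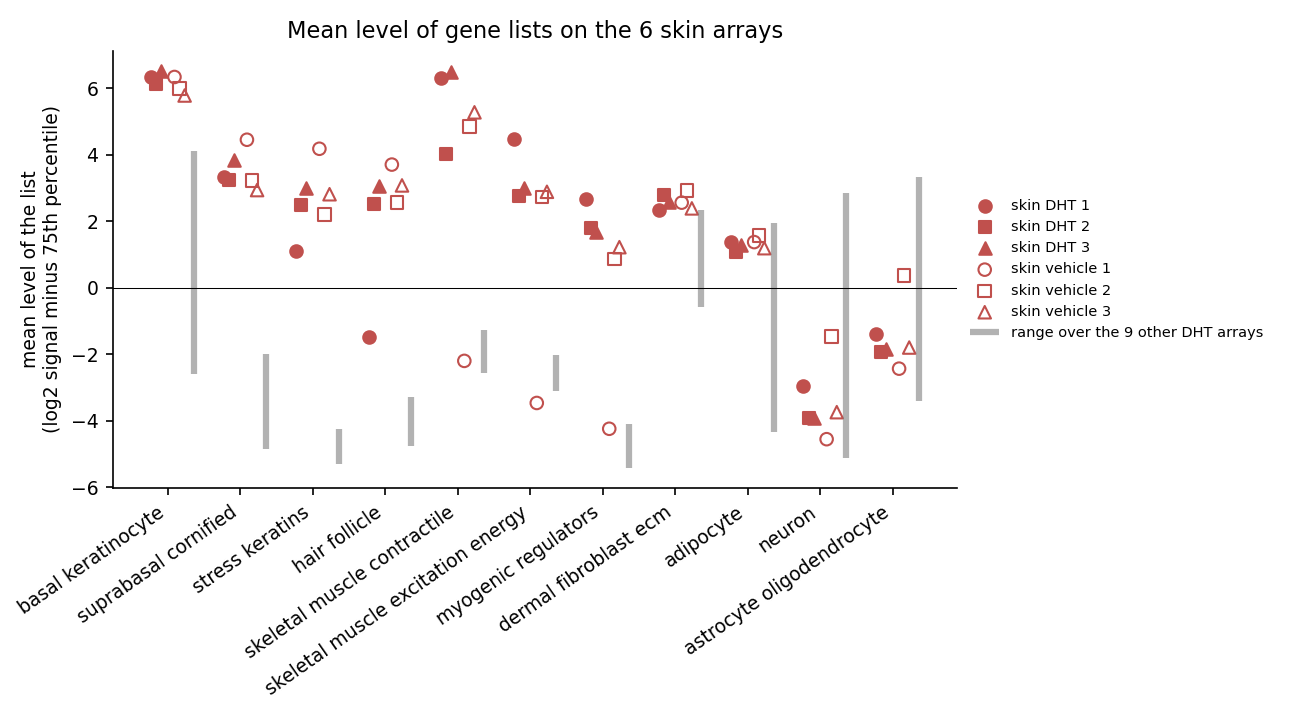
Mean log2 level of gene lists on each of the 6 skin arrays (DHT filled, vehicle open, 1 point per array), with grey lines for the range over the 9 other DHT arrays. On DHT array 1 the hair follicle mean is -1.47, while the other 5 arrays range from 2.52 to 3.70, and the contractile mean is -2.20 on vehicle array 1 and between 4.03 and 6.48 on the other 5. The 4.03 is from DHT array 2, where Tnni2, Actn3 and Myh4 had no value and are left out of the mean.

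Gland genes gave no call in all 3 contrasts. Of 11 measured genes of sebaceous lipid synthesis 0 were higher and 0 lower, against 13.8% and 14.5% of genes with a symbol, and 2 were higher and 1 lower under normexp. Mc5r, the melanocortin receptor of sebocytes, stood at -2.59, -2.70 and -1.11 in skin, level with prostate (difference 0.35, SE 0.63, adjusted p = 0.64) and above ovary and forebrain. Fasn, the fatty acid synthase, was lower than in prostate by 1.25 and than in ovary by 1.18, and Mgst1 was lower than in both by 1.46 and 1.92. Of 12 genes of gland secretion or simple gland epithelium 0 passed in every contrast, and 8 were lower than in prostate. Under normexp 2 of the 12 were higher, and with the replicate block 1. Krt18 and Krt19, keratins of simple epithelia, were lower than in prostate by 10.09 and 7.54. Scgb1d2 and Scgb1d4, secretoglobins of glands, were lower than in prostate by 11.92 and 11.37 and at least 3.19-fold and 6.03-fold higher than in ovary and forebrain, where neither was above background.

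Skeletal muscle gave the largest differences between skin and the other tissues. Of 21 measured contractile genes 16 were higher, of 37 genes of excitation, calcium handling and energy supply 32, and of 5 myogenic regulators 5, with 0 lower in any list. With the replicate block 15 of the 21 contractile genes were higher. Of the 3 lists together 53 of 63 were higher and 30 remained so without scaling. With skin DHT array 1 left out, 12 of 17 contractile genes, 29 of 36 of the second list and 4 of 4 regulators were higher. Acta1, skeletal alpha-actin, stood at 9.92, 8.52 and 9.17 in skin, at 2.77, 2.49 and 2.60 in prostate, at -2.51, 0.67 and 0.20 in ovary and at -2.10, -2.30 and -1.94 in forebrain. It was higher by 6.58, 9.75 and 11.32 (SE 0.68). Tnni2, the fast-fibre troponin inhibitor, stood at 12.07 and 10.06 on skin arrays 1 and 3 and between -2.56 and -0.91 elsewhere. Skin array 2 had no value for it, for Actn3, Myl11, Myh4 or Ckm because the spot was marked as an outlier there. Myh4, the fast myosin heavy chain of type IIB fibres, stood at 11.46 and 8.82 in skin, was not well above background on any prostate array and was higher than in ovary and forebrain by 14.83 and 14.19 (SE 0.95).

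Promoters of 3 of these sarcomere genes are given because the muscle genes moved together and because these promoters, chosen for it, hold TATAAA. Those of the muscle genes Ckm, Atp2a1 and Actn3 and of the keratinocyte genes Krt75 and Ivl hold none. TATAAA begins 29 bases before the start of Acta1 and 227 and 45 before that of Myh4. On the opposite strand it lies 193 bases before the start of Myh4 and 72 before that of Tnni2.
Acta1 (chr19:68784145-68784444, minus strand): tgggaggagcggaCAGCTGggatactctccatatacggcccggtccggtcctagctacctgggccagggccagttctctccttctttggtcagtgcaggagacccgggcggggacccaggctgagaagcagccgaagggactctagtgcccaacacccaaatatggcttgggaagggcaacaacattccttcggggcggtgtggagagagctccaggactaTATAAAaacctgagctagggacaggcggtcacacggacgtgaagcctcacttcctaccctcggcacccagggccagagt
Myh4 (chr10:52421898-52422197, plus strand): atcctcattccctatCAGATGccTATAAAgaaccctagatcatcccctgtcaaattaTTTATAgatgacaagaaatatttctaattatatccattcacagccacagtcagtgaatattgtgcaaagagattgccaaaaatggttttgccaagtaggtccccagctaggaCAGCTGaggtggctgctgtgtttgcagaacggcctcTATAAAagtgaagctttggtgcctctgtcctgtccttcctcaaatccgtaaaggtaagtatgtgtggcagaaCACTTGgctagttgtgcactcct
Tnni2 (chr1:207024240-207024539, plus strand): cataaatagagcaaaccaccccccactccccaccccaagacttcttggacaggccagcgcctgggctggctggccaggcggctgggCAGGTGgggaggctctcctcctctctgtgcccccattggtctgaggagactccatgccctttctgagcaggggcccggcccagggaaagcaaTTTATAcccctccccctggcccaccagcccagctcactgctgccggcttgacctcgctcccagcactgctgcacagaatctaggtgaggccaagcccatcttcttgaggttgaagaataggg

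The genes that rank highest among those measured in all tissues were nearly all of this kind. Actn3, the alpha-actinin of fast fibres, was higher by 14.43, 13.83 and 13.26 (SE 0.54), and Myl11, a fast regulatory myosin light chain, by 13.49, 13.59 and 13.12 (SE 0.58). Atp2a1, the calcium pump of fast sarcoplasmic reticulum, stood at 8.90, 7.61 and 7.73 in skin and between -4.30 and -3.18 elsewhere. Pgam2 and Eno3, muscle isoforms of glycolytic enzymes, were higher by at least 11.06 and 8.77, Ampd1, the muscle AMP deaminase, by at least 10.88, and Mb, myoglobin, by at least 9.07. Csrp3, a Z-disc protein, Hrc and Cacng1, which serve calcium handling, Tnnc2, fast troponin C, and Cox8b, a muscle subunit of cytochrome oxidase, were each higher by at least 7.11. The 2 others of the 15 genes with the largest differences were the epidermal genes Krt1 and Ly6g6c. Every one of the 15 was also higher without scaling and under all 5 scalings. They were picked for the largest differences on these same arrays, so this adds no support.

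Regulators of muscle identity were present as well. Myod1, the factor that commits cells to muscle fate, stood at 4.83, 3.74 and 3.20 in skin and between -9.12 and -5.98 elsewhere, well above background on 1 forebrain array alone. Myog, myogenin, stood at 3.28, 1.78 and 0.30, and Myf6, a factor of mature fibres, at 1.99, 0.86 and 1.08. All 3 skin arrays lay above the 9 others for each. Myod1 and Myf6 passed the filter on low signal through the skin arrays, so no p is given for them. Myl2 and Myl3, light chains of slow and cardiac muscle, were highest on skin array 3, with 4.27 and 5.02 against 0.14 to 3.25 on arrays 1 and 2. Probes of the muscle lists held 11.3%, 3.39% and 5.11% of all signal on skin arrays 1 to 3, against at most 0.43% on the other DHT arrays. Outlier spots were left out of these shares. The share of array 2 therefore lacks Tnni2, Actn3, Myh4 and Ckm and cannot be ranked against those of arrays 1 and 3.

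**Figure D4:**
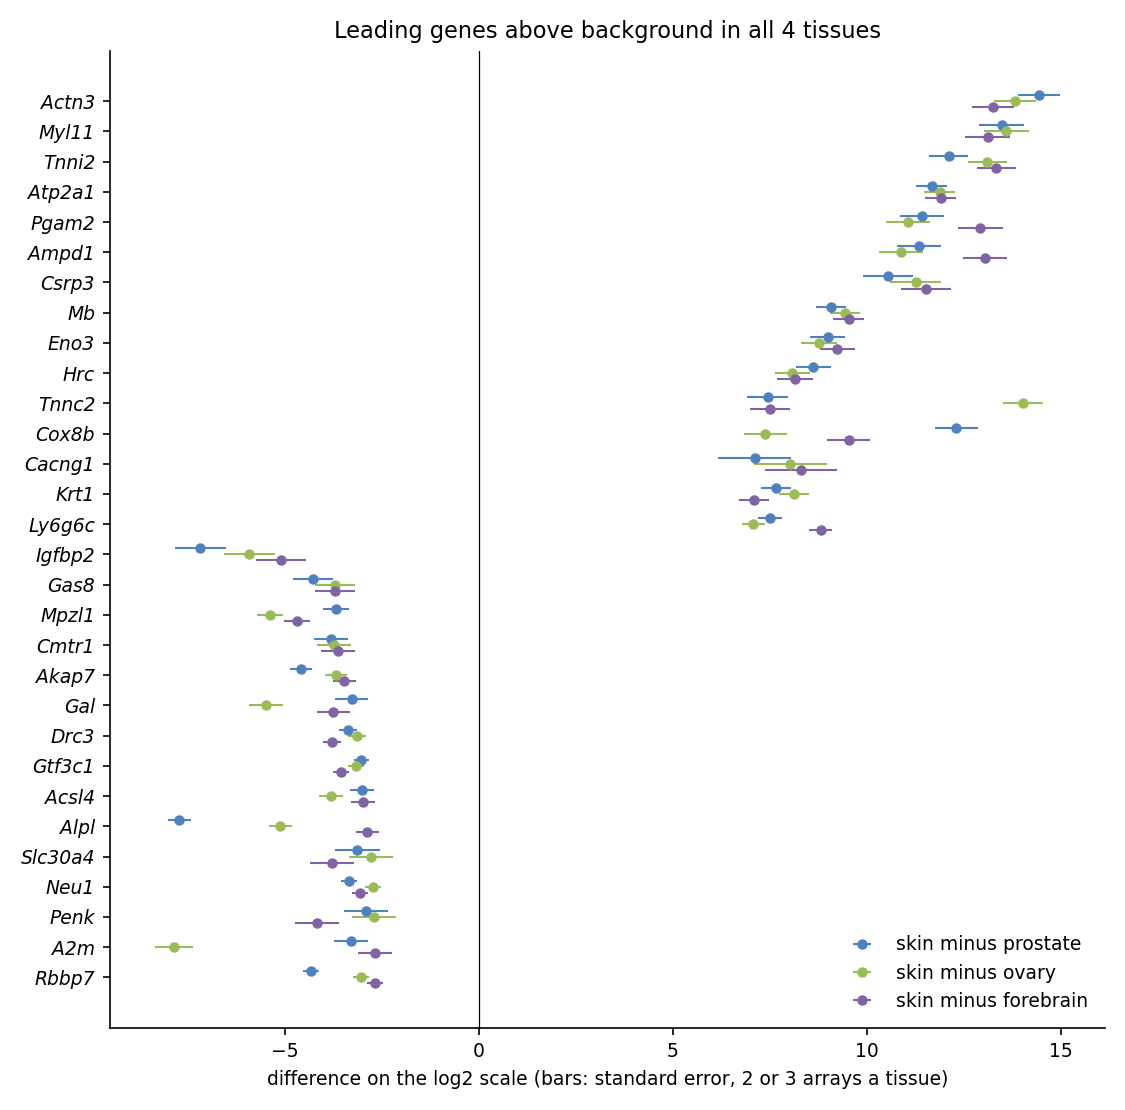
Differences in log2 level between skin and each other tissue (x axis) for the 15 higher and 15 lower named genes measured in all 4 tissues, 1 row per gene, with standard errors from limma over 2 or 3 arrays a tissue. Actn3 lies between 13.26 and 14.43 and Igfbp2 between -7.18 and -5.10.

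Muscle transcripts were not shared by all skin samples. On skin vehicle array 1 Acta1 stood at -1.37, against 9.19 and 9.03 on arrays 2 and 3, and Myod1 at -8.04, against 2.61 and 3.02. Ckm, muscle creatine kinase, stood at -2.94, 10.26 and 10.09. Muscle probes held 0.13% of the signal of that array and 5.41% and 5.44% of the others. Krt14 was high on all 3, at 7.88, 7.34 and 6.67. With all 3 vehicle arrays, 1 of the contractile genes, 2 of the energy genes and 0 of the myogenic regulators were called higher in skin. Without skin vehicle array 1 these counts were 12, 21 and 3. How deep each piece of skin was cut is not in the labels, and its part in this difference was not tested.

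**Figure D5:**
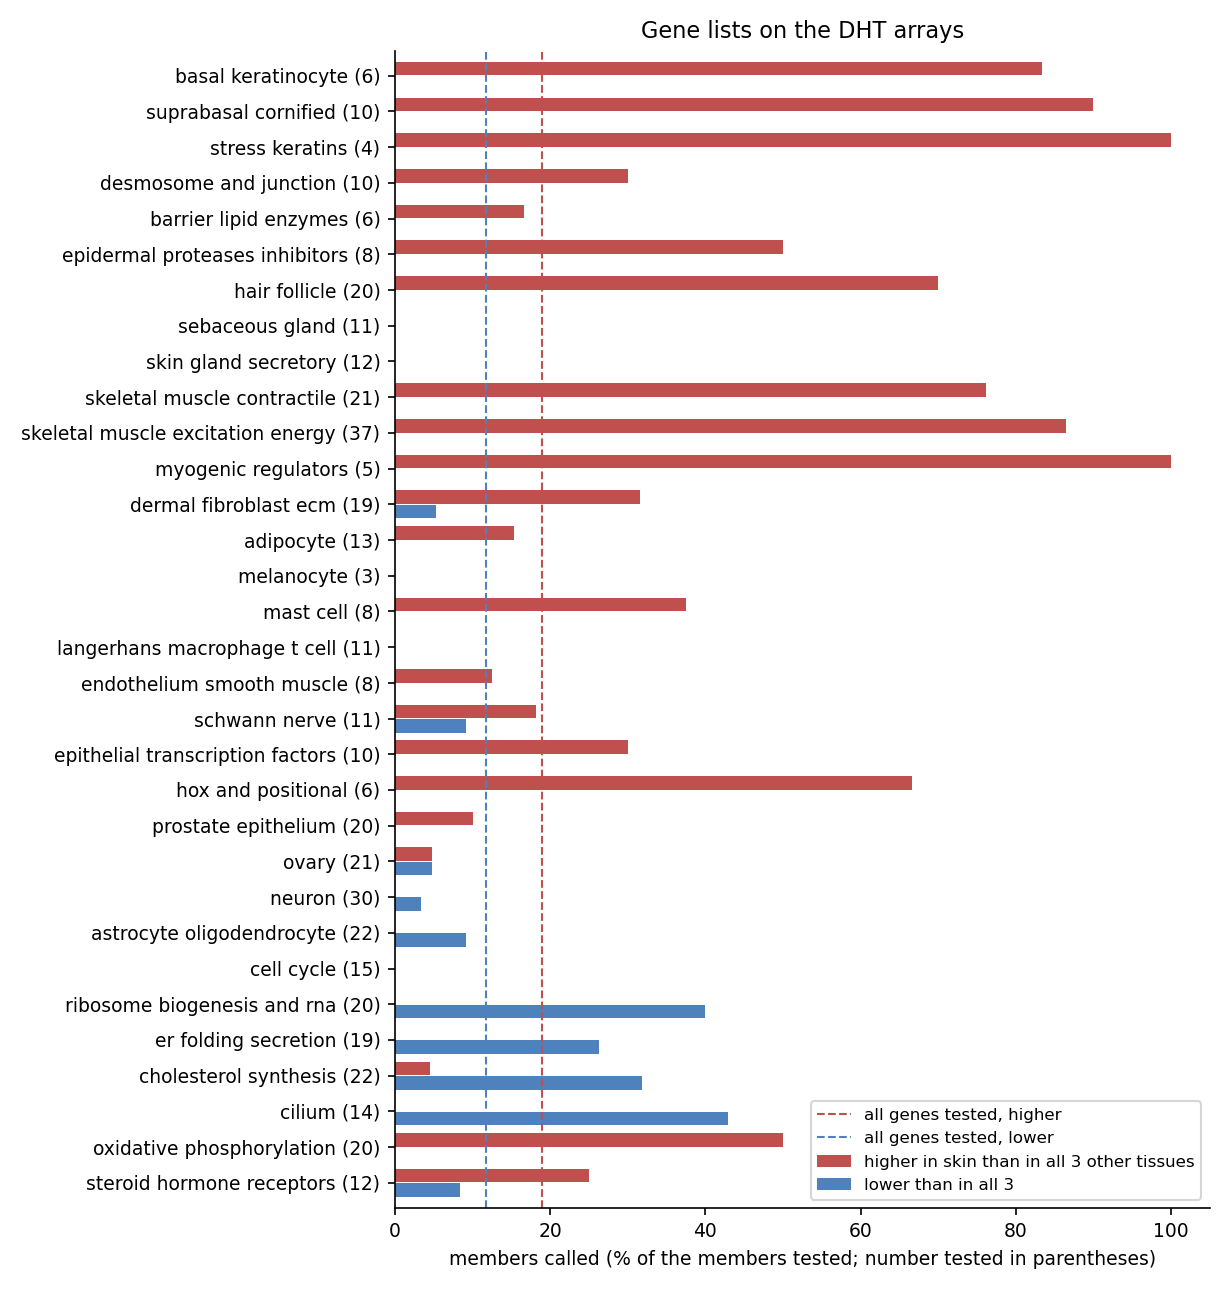
Share of measured members of each gene list that were higher or lower in skin than in all 3 other tissues on the DHT arrays. Bars give percent of the members tested and dashed lines the 19.0% and 11.7% of all genes called. Basal, suprabasal, hair and muscle lists lie above the line, and the sebaceous and gland lists are at 0.

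Genes of the dermis were higher in part. Of 19 measured fibroblast and matrix genes 6 were higher (31.6%, against 19.0% of all genes and 13.8% of those with a symbol) and 1 lower, and with quantile normalization 3 were higher. Col1a2, a chain of type I collagen, stood at 8.86, 8.67 and 8.24 in skin, 5.54, 5.51 and 4.73 in prostate, 6.29, 6.46 and 6.45 in ovary and 2.95, 2.71 and 2.45 in forebrain. It was higher by 3.33, 2.19 and 5.89 (SE 0.26). Prrx1, a homeobox factor of limb and skin mesenchyme, was higher by 3.30, 4.01 and 4.66, Fbn1, fibrillin, by 1.91, 2.08 and 5.83, and Dcn, decorin, by 1.32, 2.44 and 6.81. Eln, elastin, was higher by at least 1.15, and Fmod, fibromodulin, was lower by 1.86, 2.72 and 1.16. Without scaling 0 of the list remained higher, and Col1a2, Fbn1, Dcn and Eln turned lower than in the nearest tissue.

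Genes of fat and resident cells were higher in a few cases. Of 13 adipocyte genes 2 were higher (15.4%, against 13.8% of genes with a symbol), Cfd, the adipokine adipsin, by 1.19, 1.46 and 8.46, and Car3, a carbonic anhydrase of fat and slow muscle, by 1.75, 1.44 and 11.15. Adipoq, adiponectin, stood at 2.53, 2.98 and 2.37 in skin and higher in prostate (3.91, 4.01 and 3.40) and ovary (3.94, 4.17 and 3.86). The contrast with prostate did not pass (adjusted p = 0.051 in limma). On the vehicle arrays the order was the opposite, with 3.37, 3.48 and 3.11 in skin and 2.17, 2.28 and 2.58 in prostate. Of 8 mast cell genes 3 were higher (37.5%): the tryptase Tpsab1 by at least 1.53, the chymase Cma1 by 1.20 and 4.86 against prostate and ovary and at least 462-fold against forebrain, and Mcpt1 by 0.95, 3.56 and 3.95. With the replicate block Mcpt1 did not pass and 2 of the 8 were higher. All 5 of these genes turned lower than in the nearest tissue without scaling. Of 3 melanocyte genes and 11 genes of macrophages, Langerhans cells and T cells, 0 were higher or lower in every contrast. The melanocyte genes were Sox10, Kit and Ednrb, the only 3 of 12 listed that were found by name on the array. Sox10 and Kit were also on lists of other cell types, so this count says little of melanocytes. Of 8 vessel genes 1 was higher (12.5%, against 13.8% of genes with a symbol), the endothelial adhesion protein Pecam1, by 1.90, 0.72 and 2.79. Pecam1 was lower in skin than in the nearest tissue both without scaling and on the vehicle arrays.

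Pmp22, a protein of peripheral myelin, was higher by at least 0.81, and turned lower than in the nearest tissue without scaling. Brain genes were low against forebrain alone: all 30 measured neuronal genes and 20 of 22 astrocyte and oligodendrocyte genes were lower there. Of the neuronal genes 12 were higher and 2 lower than in prostate, and 12 higher and 3 lower than in ovary. Of the astrocyte and oligodendrocyte genes 11 were higher and 3 lower than in prostate, and 12 higher and 5 lower than in ovary. Of all genes tested, 33.0% were higher and 28.4% lower than in prostate, and 34.7% higher and 28.7% lower than in ovary. The neuronal list had means of -2.96, -3.92 and -3.92 on the skin arrays, where the lowest level above background was -3.22, -4.80 and -4.76. Gfap, the astrocyte filament, stood at -1.02, -1.55 and -1.91 in skin, between forebrain (1.43, 1.51 and 1.23) and both prostate and ovary, where it was not well above background. Mbp, a protein of central and peripheral myelin, stood at -0.48, -1.49 and -1.92 in skin, at 5.67, 5.68 and 5.90 in forebrain and between -4.58 and -3.21 in prostate and ovary.

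Some transcription factors and receptors were also higher, where 13.8% of all genes with a symbol were higher and 14.5% lower. Of 10 epithelial factors 3 were higher, Tp63, Gata3, which acts in epidermis and inner root sheath (by 2.67, 5.96 and 6.17), and Vdr, the vitamin D receptor (-5.07, -4.40 and -4.04 in skin, at least 1.63-fold and 2.85-fold higher than in prostate and ovary, where it was not above background). Without scaling these 3 turned lower than in the nearest tissue. Of 6 positional and Hox genes 4 were higher. Shox2, a limb homeobox factor, stood at -1.94, -1.38 and -1.51 in skin and was not well above background in any other tissue. It was at least 12.1-fold, 21.2-fold and 18.3-fold higher, also without scaling. Meox2 was higher by 2.24, 3.69 and 6.62, Hoxa2 by at least 1.99 and Pitx1 by at least 1.31, and the 3 turned lower than in the nearest tissue without scaling. Of 12 steroid and nuclear receptor genes 3 were higher (25%) and 1 lower (8.33%), and on the vehicle arrays 0 were higher and 1 lower. Rxrg, a retinoid X receptor found in muscle, stood at 4.25, 2.68 and 3.12 in skin and at -2.22 to -0.27 elsewhere. On the vehicle arrays it stood at -0.73 on skin array 1 and at 2.90 and 2.82 on the others, the order of the muscle genes. Rxra was higher by at least 1.34, though lower than in the nearest tissue without scaling, and Rxrb lower by at least 0.75. Esr1, the estrogen receptor alpha, was higher than in prostate and forebrain, where it was not well above background, and level with ovary (difference 0.02, SE 0.50).

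Genes of no list among those measured in skin and not above background in another tissue were led by Asb12, a muscle ubiquitin ligase subunit (3.85, 1.87 and 1.83 in skin), Krt24, an epithelial keratin (3.01, 1.10 and 2.93), and Clca5 (3.01, 1.51 and 2.42). Hspb3, a small heat shock protein of muscle, stood at 4.65, 2.22 and 2.70, and Hal, the histidine ammonia lyase that makes urocanic acid in the stratum corneum, at 2.0, 0.98 and 1.94. These 5 were chosen by that pattern, so no test is given, and each was also higher without scaling. Among 353 olfactory and vomeronasal receptor genes tested, 85 were higher (24.1%, against 13.8% of genes with a symbol) and 1 lower (0.283%, against 14.5%). Without scaling 3 of the 85 remained higher. Only symbols that begin with Or and a digit, Vom1r or Vom2r were counted, and receptors named Olr were not.

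Genes lower in skin than in every other tissue had smaller differences. Igfbp2, a binding protein of insulin-like growth factors, stood at -5.47, -4.71 and -2.28 in skin, at 3.21, 2.99 and 2.87 in prostate, at 1.48, 2.44 and 1.38 in ovary and at 0.94, 1.05 and 0.86 in forebrain. It was lower by 7.18, 5.92 and 5.10 (SE 0.65). On skin array 1 its value lay below -3.22, the lowest level that counted as above background there, so these sizes are approximate. Alpl, tissue-nonspecific alkaline phosphatase, was lower by 7.72, 5.12 and 2.88 (SE 0.30). A2m, a broad protease inhibitor, was lower by 3.29, 7.86 and 2.68, and Rbbp7, a histone-binding protein of chromatin complexes, by 4.33, 3.04 and 2.67. Gtf3c1, a factor of RNA polymerase III, was lower by at least 3.03, the sialidase Neu1 by at least 2.72 on both of its probes, and the zinc transporter Slc30a4 by at least 2.78. Gal, the neuropeptide galanin, was lower by 3.28, 5.49 and 3.75 on the DHT arrays, but on the vehicle arrays its difference from prostate was 1.61, with no call. Acsl4, Akap7 and Penk were lower on the probe tested, and another probe of each gave differences that were smaller or of the opposite sign. Mpzl1 and Cmtr1 were lower by at least 3.69 and 3.64, and another probe of Mpzl1 differed by -1.71, -2.72 and -2.61.

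Cilium genes were among those lower. Gas8 and Drc3, parts of the complex that regulates axonemal dynein, were lower by at least 3.71 and 3.15. Drc3 stood at -1.02, -1.03 and -1.04 in skin and between 1.70 and 2.81 elsewhere. Of 14 measured cilium genes 6 were lower in every contrast and 0 higher, against 11.7% of all genes and 14.5% of those with a symbol: Rsph1, a radial spoke protein, the transport proteins Ift46, Ift74, Ift81 and Ift172, and Bbs2 of the BBSome. Ift74 was lower by 1.68, 1.65 and 1.71 (SE 0.24), and Bbs2 by 1.36, 2.16 and 1.90 (SE 0.15). Against prostate 5 of the 14 were higher and 6 lower in skin, against ovary 13 were lower and against forebrain all 14. Of all genes tested, 33.0% were higher and 28.4% lower than in prostate, 28.7% lower than in ovary and 30.3% lower than in forebrain. Without scaling 11 of the 14 were lower in every contrast, as were 21660 of the 31890 genes or probes tested. Genes without signal above background on any skin array numbered 393 of the 3723. They were led by Slc12a5, the neuronal chloride transporter, Drc12, Cfap96, Rsph1, Dhtkd1, Morn1, Nap1l2, Fgf9, Rims2 and Stpg1, at least 2.25-fold lower in every contrast. Under normexp the sign of the smallest difference changed for Cfap96, Rsph1, Dhtkd1, Morn1, Nap1l2, Fgf9, Rims2 and Stpg1. Another probe of Slc12a5 differed by 0.64, -0.44 and -5.21.

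Housekeeping and secretory pathways were lower in part. Of 19 genes of endoplasmic reticulum folding 5 were lower (26.3%, against 14.5% of genes with a symbol) and 0 higher, and all 19 were lower than in prostate, a secretory gland. Hyou1, a chaperone of that compartment, stood at 2.78, 3.74 and 3.09 in skin and was lower by 4.21, 1.93 and 1.41. Of 22 genes of cholesterol synthesis 7 were lower (31.8%), among them Msmo1 (by 2.44, 2.51 and 1.83), Hmgcs1 (2.71, 1.63 and 1.66), Cyp51 (2.96, 1.89 and 1.38), Fdft1 and Sqle. Srebf2, the factor that drives the pathway, was higher by 1.69, 3.03 and 2.50 on the probe tested, and its other probe differed by -0.47, 0.57 and 0.04. On the vehicle arrays 0 of the 22 were lower in every contrast, and Msmo1, Hmgcs1 and Sqle had the opposite sign in at least 1 contrast. Of 20 genes of ribosome biogenesis and RNA processing 8 were lower, including Bop1 (by 1.56, 1.19 and 0.92) and Polr1a (1.52, 2.73 and 1.12). With the replicate block 7 of the 20 were lower, and on the vehicle arrays 0 were lower and 3 higher. Without scaling, where most genes of the array were lower, 18 of 19, 21 of 22 and 20 of 20 genes of these 3 lists were lower. Of 20 genes of oxidative phosphorylation 10 were higher, against 13.8% of genes with a symbol, and 0 lower, a direction that turned without scaling, with 0 higher and 18 lower. Sdhd, a subunit of succinate dehydrogenase, was higher by 1.31, 1.45 and 1.24, and Slc25a4, the mitochondrial ADP/ATP carrier of muscle, by 3.85, 2.23 and 1.10. With quantile normalization 3 of the 20 were higher, where Slc25a4 changed sign, and on the vehicle arrays 0. The list mean was 5.79, 4.66 and 5.14 on the DHT skin arrays, and that of the muscle energy genes 4.48, 2.75 and 2.99, where the 2.75 of array 2 leaves out Ckm, which had no value there. On skin vehicle arrays 1 to 3 these means were 4.14, 4.93 and 4.70, and -3.46, 2.73 and 2.89. The part of muscle in the oxidative phosphorylation calls was not tested.

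Promoters of genes higher in skin differed from those of genes lower in skin in base composition and in TATAAA. A promoter was found for 6166 of the 7607 tested genes with a symbol. TATAAA on either strand lay in 10.2% of these, in 14.9% of genes higher and 5.61% of genes lower in skin, and in 21.7% of genes at least 4-fold higher. It lay in 9 of 22 keratinocyte and hair genes that were higher (40.9%) and in 13 of 40 muscle genes (32.5%), against 14.3% of all 27457 promoters in the table. CANNTG, the pattern that myogenic factors and many others bind, lay in 65.4% of promoters tested, 85.0% of the muscle genes and 72.7% of the keratinocyte and hair genes. TGANTCA, the AP-1 pattern, lay in 6.21% of those tested and in 0 of either group. The ratio of observed to expected CpG had a median of 0.69 over all tested genes, 0.56 over genes higher, 0.80 over genes lower, 0.37 over keratinocyte and hair genes and 0.27 over muscle genes. These are descriptions of the letters in a 300-base window, with no test.

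The vehicle arrays gave the same direction for most of these genes. They came from rats of the same strain and age, castrated males or, for ovary, intact females, that received vehicle in place of DHT, and none was used for the calls above. Of 6011 genes higher in skin on the DHT arrays that could be tested, 2149 were called again (35.8%), where 7.81% of all genes tested were called higher, and 5185 (86.3%) had a positive difference against all 3 tissues, against 26.4% of all genes. Of 3722 lower genes 1477 were called again (39.7%), where 5.54% of all genes were called lower. The difference was negative against all 3 tissues for 3408 of them (91.6%), against 24.5% of all genes. In neither direction was any gene called the opposite way. The calls made again were 87.5% and 84.8% of the vehicle calls. The difference between skin and the mean of the other tissues depended on treatment for 5 of 31874 genes (0.0157%; limma interaction, adjusted p under 0.05), and 4726 had an unadjusted p under 0.05. With slide as a random block 93 genes passed. The 1 gene of the 5 with a symbol was Acat2, a thiolase at the start of cholesterol synthesis.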

How the data were processed

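Agilent 1-colour rat arrays were read from the scanner files. The deposited values were spot intensities on a linear scale. Per the file headers they were written by Agilent Feature Extraction 10.5.1.1, with background subtraction and spatial detrending and no scaling between arrays. The submitters' processing notes name version 10.1 and limma. Of 42429 spots, 1417 control spots were left out, as were outlier spots. Saturated spots numbered 0. Forebrain vehicle array 3, which failed the submitters' quality control, was not used. Symbols came from matching the unversioned accession of a probe to a RefSeq table of GRCr8 (10813 of 41012 probes, 8945 symbols), used for names only.

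Levels were log2 of the processed intensity minus the 75th percentile of the array. Probes were kept that passed the background flag on 3 or more of the 12 DHT arrays, and a gene was represented by its probe with the highest mean signal. The fit had 4 tissue means (limma 3.58.1, R 4.3.3, functions lmFit and eBayes). P-values were adjusted over all genes by Benjamini and Hochberg, with a threshold of 0.05. A gene counted as higher or lower in skin had to pass in the same direction against all 3 tissues. The vehicle arrays (11) were fitted alone in the same way, and a fit over 23 arrays tested whether skin differences depended on treatment. Arrays are few, and their number limits the precision.

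The genes named were, among those with a symbol, the 15 with the largest smallest difference among genes measured in all tissues and the 15 not above background in at least 1 other tissue, the same for lower genes (15 and 10), a fixed set of tissue markers, and up to 6 members of each of 32 gene lists, called members first. Some genes under this rule are not reported here. Other names were picked with their values in view. The lists and their members were chosen with earlier results of these data known. Scripts were tested on simulated data, in which 44.8%, 92.5% and 100% of genes made to differ by 2, 4 and 6 log2 units from all tissues were recovered. The same-number arrays of the DHT groups shared a slide. Deviations from the group means correlated between skin and forebrain by 0.102 to 0.245 on the 3 slides, and between skin and prostate or ovary by -0.0386 to 0.182. These ranges overlap, so the values do not settle which groups are paired by number. The fit with the replicate number as a block is therefore given for the counts over every tissue, for each list count that it changed and for named genes whose call it ended. Alternatives were other scalings and background corrections, filters, probes, array weights, samples and a replicate block. Normexp used the median in place of the mean spot signal, which was not used here.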

Additional observations from a re-analysis of the deposited data

Results flagged for a closer look

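Acat2 differed between treatments in how far skin stood from the other tissues, by a test of that difference itself. Its skin level was 2.32, 3.21 and 3.37 on the DHT arrays and 3.92, 3.88 and 3.98 on the vehicle arrays, and its prostate level was 4.07, 4.20 and 4.05 with DHT and 1.53, 1.40 and 2.08 with vehicle. The skin difference with DHT minus that with vehicle was -1.92 (SE 0.27, adjusted p = 0.014 in the limma interaction). Each DHT skin array lay below each vehicle skin array, and each DHT prostate array above each vehicle prostate array. DHT and vehicle arrays lay on separate slides.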

How the results depend on the processing

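The counts were most sensitive to how the arrays were scaled. With normexp 14168 genes were higher in skin than in every tissue, and 19543, 19475 and 20164 were higher than in prostate, ovary and forebrain. With the array median 3947 were higher and 6158 lower than in every tissue, and 6682 were higher than in prostate. Without scaling, an alternative chosen after seeing the data, 482 were higher and 21660 lower. The counts against prostate were then 1269 higher and 24717 lower, against ovary 828 and 27243, and against forebrain 1169 and 24966. The vehicle arrays gave 2457 higher and 1741 lower, with 6738, 4245 and 7776 higher than in prostate, ovary and forebrain. A minimum of 2-fold left 2081 lower. The treatment-dependent genes numbered 5, against 93 with slide as a random block and 22 with quantile normalization. The cause of these shifts was not tested. With the replicate number as a block, 6362 were higher and 3669 lower than in every tissue, so the block moved neither count by over 1.5 times. Among the genes named it ended the call of Mcpt1 alone.

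Leaving out each DHT array in turn gave 5436 to 5965 higher and 3373 to 3896 lower. Against prostate the ranges were 9149 to 10424 and 8148 to 9339, against ovary 9534 to 10822 and 8114 to 9403, and against forebrain 11140 to 12486 and 8355 to 10105. Leaving out a skin array also removes genes bright in skin alone from the test.

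Some named genes changed the sign of their smallest log2 difference. Under normexp these were Cfap96 (0.13), Rsph1 (0.20), Dhtkd1 (0.44), Morn1 (0.50), Nap1l2 (0.58), Fgf9 (0.68), Rims2 (0.73), Stpg1 (0.68) and Ift81 (0.22), and under quantile normalization Slc25a4 (-0.54). On the vehicle arrays these were Gal (1.61), Plec (-0.41), Jup (-0.016), Eln (-0.15), Pecam1 (-0.80), Msmo1 (0.37), Hmgcs1 (1.23), Sqle (0.78), Slc25a4 (-0.10) and Rxrg (-0.048). Without scaling these were Tp63 (-0.85), Col1a2 (-1.24), Plec (-1.95), Gjb5 (-0.15), Jup (-2.48), Sult2b1 (-1.47), Cst6 (-0.074), Fbn1 (-1.36), Dcn (-1.45), Eln (-2.29), Car3 (-1.99), Cfd (-1.98), Tpsab1 (-1.67), Cma1 (-1.57), Mcpt1 (-1.82), Pecam1 (-2.71), Pmp22 (-2.36), Gata3 (-0.10), Vdr (-1.48), Meox2 (-0.53), Hoxa2 (-1.44), Pitx1 (-1.46), Srebf2 (-1.08), Sdhd (-1.98), Slc25a4 (-2.09) and Rxra (-1.91). Low signal over background on the skin arrays limits what can be said of genes lower in skin.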
